A study of Mus musculus with 4 samples.

Results

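Metal and heme handling genes were measured in granulosa cells (GCs) of the mouse ovary, which line the follicle around the oocyte and nourish it. The genes were taken by name: the zinc transporter families Slc30a (ZnT) and Slc39a (ZIP), the metallothioneins Mt1 to Mt4 with their activator Mtf1, and a list of named genes of iron, copper and heme transport, storage, synthesis and breakdown. These names matched 45 of the 25239 genes listed, including the pseudogene Slc39a1-ps. Slc30a8, Slc39a12 and Mt4 were not analysed here. The study asked how the histone deacetylase HDAC3 acts in GCs before the luteinizing hormone surge, and these libraries compared control GCs with GCs given HDACi 4b, an inhibitor of HDAC1 and HDAC3. Both groups were wild-type ovarian GCs of C57BL/6 mice at postnatal day 24, grown in culture, with 2 libraries each. In the study's methods, mural GCs from mice primed with the gonadotropin PMSG were plated in serum-containing maturation medium and exposed to the inhibitor overnight, but dose, time and medium are not stated for these libraries in particular. The labels also carry a protocol with tamoxifen and a floxed Hdac3 allele, which the titles and the design of this series do not use, and nothing states that replicate libraries are from different cultures or mice, so p-values here cover only the spread between libraries, which may be technical.

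Cells take up zinc through ZIP transporters, move it out or into vesicles through ZnT transporters and bind the surplus in metallothioneins, whose genes the zinc-sensing factor MTF1 activates through short metal response elements (MREs) in their promoters. Iron enters on transferrin through the receptor TFRC, is stored in a shell of ferritin heavy and light chains (Fth1 and Ftl1) and leaves through ferroportin (Slc40a1). When iron is short, the iron regulatory proteins ACO1 and IREB2 bind a hairpin called the iron-responsive element (IRE), which blocks translation when it lies in the 5′ UTR and protects the message when it lies in the 3′ UTR. Heme is made from glycine by a chain of enzymes that starts with ALAS1. Heme oxygenases (HMOX1 and HMOX2) break it down to biliverdin, iron and carbon monoxide, and the biliverdin reductase BLVRA then forms bilirubin. BLVRB, a flavin and biliverdin reductase, was grouped with these breakdown genes. GCs depend on heme for the mitochondrial cytochrome P450 of steroid synthesis.

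The IREs are shown because they tie together 4 of the iron genes described here. The whole transcripts of 21877 protein-coding genes (GENCODE M21, GRCm38), coding parts included, were searched. The pattern was a C, 5 bases, the loop CAGTGN and 5 bases that pair back, with G-T pairs allowed. It matched in 294 genes (1.34%) and in 4 of the 44 members searched, whose matches all lay in UTRs. The share for UTRs alone was not computed. Capitals mark the loop, written in DNA letters from 5′ to 3′ on the transcribed strand. A match is a description of the sequence, not a measured site, and hairpins that differ from this pattern are missed. Alas2, a gene of heme synthesis outside the members, also matched in its 5′ UTR.
Fth1, 5′ UTR, chr19:9982732-9982760, plus strand: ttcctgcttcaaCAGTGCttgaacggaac
Ftl1, 5′ UTR, chr7:45459779-45459807, minus strand: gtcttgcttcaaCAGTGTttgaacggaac
Slc40a1, 5′ UTR, chr1:45925465-45925493, minus strand: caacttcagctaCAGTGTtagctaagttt
Tfrc, 3′ UTR, chr16:32631219-32631247, plus strand: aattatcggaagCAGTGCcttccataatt
Tfrc, 3′ UTR, chr16:32631598-32631626, plus strand: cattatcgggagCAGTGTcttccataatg
Tfrc, 3′ UTR, chr16:32631663-32631691, plus strand: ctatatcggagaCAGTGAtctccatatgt
Tfrc, 3′ UTR, chr16:32631710-32631738, plus strand: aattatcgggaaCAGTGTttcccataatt

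The promoters of the metallothionein cluster on chromosome 8 are shown because Mt1 and Mt3 both rose. Each is the 250 bases before the gene's start in RefSeq (GRCm38.p6), on the plus strand, and capitals mark the MRE core, TGCACNC or TGCGCNC, searched on both strands. Up to the start there was 1 match at Mt1, 3 at Mt2 and 0 at Mt3. With the 50 bases after the start included there were 3, 4 and 1. Bases further downstream were not searched, so the counts depend on the start used and do not rank the genes. Of all 32851 promoters of 300 bases, 25.7% held the core at least once and 1.97% at least 3 times. Of the 51 promoters found for 37 members, 21 (41.2%) held it, and 5 held it at least 3 times, those of Mt1, Mt2, Slc30a4, Slc30a10 and 1 start of Alas1. The antioxidant response core TGACNNNGC, searched on both strands in the same windows, was in 9 of the 51 (17.6%) and in 12.4% of all promoters.
Mt1, chr8:94178839-94179088: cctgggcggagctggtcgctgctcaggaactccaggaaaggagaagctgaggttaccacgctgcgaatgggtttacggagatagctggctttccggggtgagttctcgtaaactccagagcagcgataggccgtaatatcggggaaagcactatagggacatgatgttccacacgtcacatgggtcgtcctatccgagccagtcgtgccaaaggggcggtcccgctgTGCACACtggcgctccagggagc
Mt2, chr8:94172368-94172617: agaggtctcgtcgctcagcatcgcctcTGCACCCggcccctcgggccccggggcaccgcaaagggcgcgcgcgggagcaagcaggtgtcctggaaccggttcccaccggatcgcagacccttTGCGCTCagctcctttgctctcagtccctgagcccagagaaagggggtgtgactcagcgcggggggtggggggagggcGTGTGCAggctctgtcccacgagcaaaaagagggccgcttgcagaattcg
Mt3, chr8:94152357-94152606: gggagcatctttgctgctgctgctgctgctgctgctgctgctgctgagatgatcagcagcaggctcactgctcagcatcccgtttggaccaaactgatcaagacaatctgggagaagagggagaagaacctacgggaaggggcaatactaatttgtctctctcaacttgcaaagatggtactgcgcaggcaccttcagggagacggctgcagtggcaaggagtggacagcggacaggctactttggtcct

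Levels are given in FPKM, fragments per kilobase of transcript scaled to the mapped reads of the library, so they can be compared between genes. Read totals per library were worked back from the FPKM and exon lengths. They lay between 15951875 and 17665107 reads, and 1 read on 2000 bases was worth 0.0283 to 0.0313 FPKM. Between 11823 and 11970 genes reached 1 FPKM in a library. Markers of GCs were present, with summed levels of 1739 to 1932 FPKM. Of the 9 tested, 5 were lower and 3 were higher in treated cells. Cyp11a1, 5.21-fold higher, made up 260.1 and 128.9 FPKM of the control sums and 1094 and 933.1 FPKM of the treated sums. Fshr and Nr5a2 were 1.725- and 1.505-fold higher. Inha, Inhba, Fst, Foxl2 and Esr2 stood at 0.412, 0.544, 0.467, 0.390 and 0.0685 of their control means. The steady sum therefore does not show that the content or state of GCs was unchanged. Endothelial markers summed to at most 1.79 FPKM and erythroid markers to at most 1.195 FPKM. Oocyte markers summed to 3.77 and 1.14 FPKM in control and to 3.46 and 6.12 FPKM in treated libraries. The 1 tested, Gdf9, was not called. Of the others, Bmp15 had 10 control and 44 treated reads, Zp3 4 and 25, and Oosp1 18 and 40. Zp2 had 0 and 16, Nlrp5 1 and 15, and Zp1 2 and 2. Macrophage markers summed to 84.2 and 129.8 FPKM in control and to 60.5 and 53.1 FPKM in treated libraries. Of the 6 tested, Cd68 was 3.69-fold higher and made up 37.6 and 27.1 FPKM of the treated sums. Lyz2, C1qa, C1qb and Tyrobp stood at 0.257, 0.178, 0.157 and 0.203 of their control means, and Cd14 was not called. Theca and stroma markers summed to 192.2 and 308.3 FPKM in control and to 35.2 and 61.0 FPKM in treated libraries, with 3 of 3 tested lower. The part of these other cells in the results was not tested. In such bulk libraries fewer cells of a type and less RNA per cell cannot be told apart.

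Metal and heme genes were changed in both directions, and all of the large changes were increases. Of the 45 genes, 34 had a mean of at least 1 FPKM and were tested with limma on log2(FPKM + 1), and 23 of these (67.6%) passed an adjusted p of 0.05, against 60.5% of all 12054 genes tested. Without HDACi 4b replicate 1 the count was 15 (44.1%, beside 37.3% of all genes), and without HDACi 4b replicate 2 it was 15 again (44.1%, beside 41.9%). Of the 34, 16 were higher (47.1%) and 7 lower (20.6%), while among all genes 22.4% were higher and 38.1% lower. A change of at least 2-fold on this scale was found for 8 members (23.5%), all of them higher, where 14.2% of all genes changed 2-fold and 7.54% were 2-fold higher. The groups did not overlap for 30 of the 34 members (88.2%) and for 83.1% of all genes. The members' median log2 difference, treated minus control, was 0.32, and that of all genes was -0.15. FPKM are scaled to total reads. Scaling by the median ratio of genes instead raised the log2 differences by 0.15, and then 25 members were called, 21 higher and 4 lower, so that 84.0% of calls were increases in place of 69.6%. All genes were then called in 56.7% of cases, 29.4% higher and 27.3% lower. The number of members at least 2-fold higher was 8 with this scaling too, where 14.1% of all genes changed 2-fold and 9.18% were 2-fold higher.

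**Figure D1:**
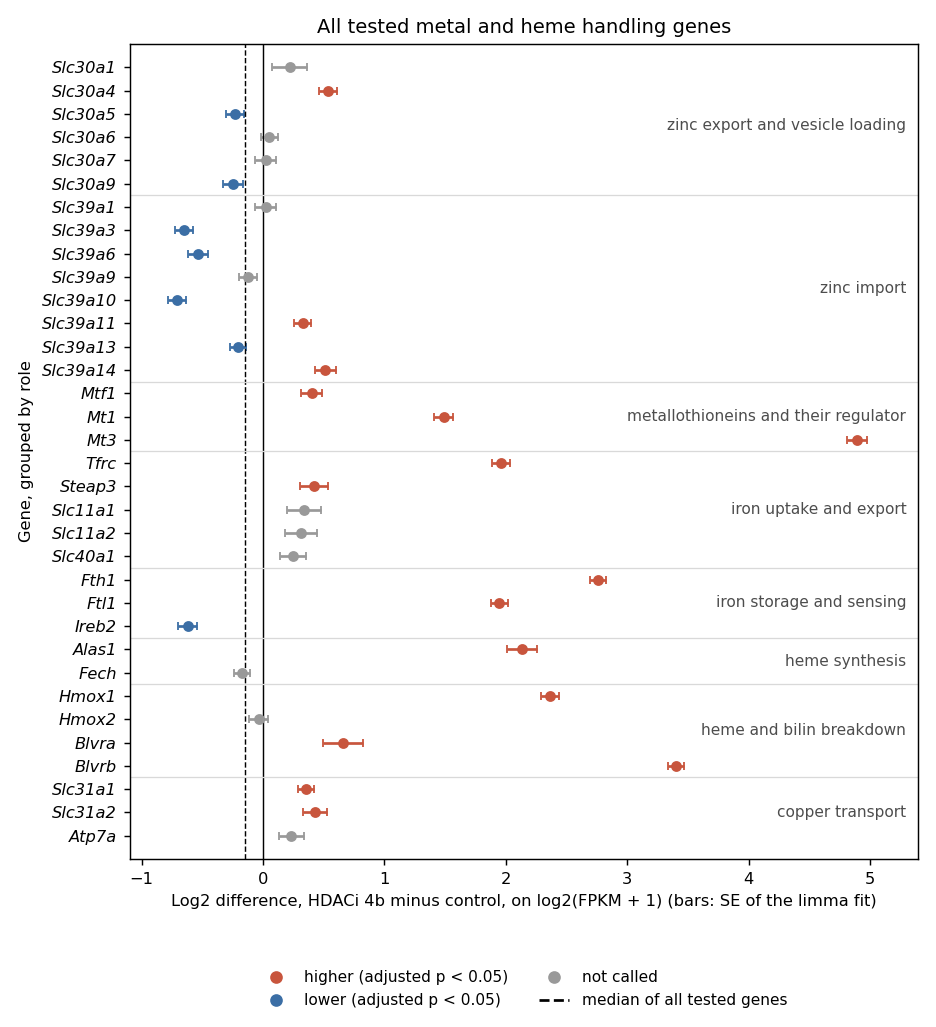
Log2 difference between HDACi 4b and control GCs on log2(FPKM + 1) for the 34 tested metal and heme handling genes, grouped by role, with bars for the SE of the limma fit. The 8 genes beyond 1 all lie to the right, from Mt1 at 1.49 to Mt3 at 4.89, and the dashed line marks the median of all tested genes at -0.15.

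Metallothioneins, small cysteine-rich proteins that bind zinc and copper, gave the largest change of the tested members. Mt3, the isoform best known from brain, stood at 1.43 and 1.17 FPKM in the control libraries and at 67.9 and 66.2 FPKM in the treated ones. The treated libraries held 1174 and 1125 reads of Mt3 where the controls held 25 and 22, so the groups were far apart. The FPKM ratio was 51.7, and the log2 difference of 4.89 ± 0.08 (SE, n = 2 and 2, limma adjusted p = 4.57e-05) is smaller than that ratio because the added 1 FPKM weighs on the low control level. Mt1, the widely expressed isoform, was at 204.9 and 216.9 FPKM in control and at 565.6 and 621.6 FPKM in treated libraries, 2.82-fold higher (log2 difference 1.49 ± 0.08, adjusted p = 0.000194). Both treated libraries lay above both controls. Mt1 was thus 143.6 and 185.7 times as abundant as Mt3 in the control libraries, and 8.33 and 9.40 times in the treated ones.

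Mt2, the usual partner of Mt1, was listed at 0 FPKM in 3 libraries and at 0.213 FPKM, from 2 reads, in treated replicate 2. Of its exon bases, 73.5% are shared with the annotated gene Gm45774, which itself held 2 control and 4 treated reads. Among the 224 genes that share at least 70% of their exon bases with another gene, 87.5% had a mean under 1 FPKM, against 52.5% of the 16445 genes that share none. The sources used here do not state how reads on shared bases were counted, so a silent gene and an uncounted gene cannot be told apart for Mt2.

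Mtf1, the zinc-sensing activator of these genes, was at 2.45 and 2.42 FPKM in control and at 3.48 and 3.58 FPKM in treated libraries. Both treated values were higher, by a log2 difference of 0.40 ± 0.09 (adjusted p = 0.0121), but the call was lost when either treated library was left out (adjusted p up to 0.0784). Its classical target Slc30a1, which exports zinc across the plasma membrane, was at 1.65 and 1.63 FPKM in control and at 2.46 and 1.73 FPKM in treated libraries. The treated values did not overlap the controls but lay far apart, and the difference of 0.22 ± 0.14 was not called (adjusted p = 0.231). The genes on either side of the cluster, named outside the rule for members, moved apart: Nup93, a nuclear pore subunit, was higher by 0.37 ± 0.07 and Bbs2, a ciliary BBSome subunit, was lower at -0.65 ± 0.10 on the log2 scale.

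**Figure D2:**
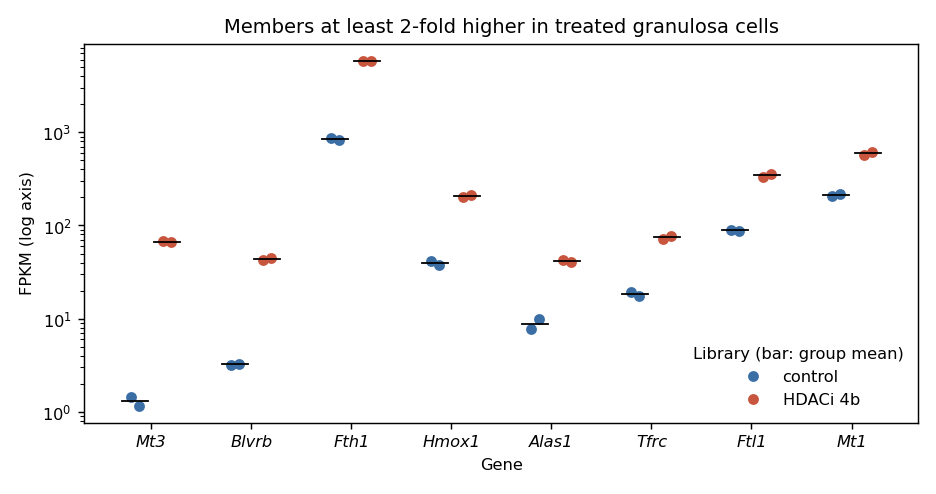
FPKM on a log axis in each of the 4 libraries for the 8 members that rose at least 2-fold, in order of their log2 difference, with a bar at each group mean. The treated libraries lie above the controls for every gene, from 1.17 and 1.43 to 66.2 and 67.9 FPKM for Mt3 and from 827.9 and 877.2 to 5757 and 5786 FPKM for Fth1.

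Of the zinc exporters and vesicle loaders, Slc30a4 was both the most abundant and the firmest call. Of 6 tested Slc30a genes, 1 was higher, 2 were lower and 3 were not called, and with median-ratio scaling 2 were higher and 0 lower. Among all genes 22.4% were higher and 38.1% lower, and with that scaling 29.4% and 27.3%. Slc30a4, which loads zinc into endosomes and, in the breast, into milk, was at 13.0 and 14.1 FPKM in control and at 20.7 and 19.5 FPKM in treated libraries, a log2 difference of 0.54 ± 0.08 (adjusted p = 0.00267) that kept its call in every alternative. The early secretory pathway transporter Slc30a5 (-0.23 ± 0.07, adjusted p = 0.0434) and the mitochondrial zinc exporter Slc30a9 (-0.24 ± 0.08, adjusted p = 0.0486) were called lower close to the threshold. Those calls were lost in 8 and 6 of the 9 alternatives, with adjusted p up to 0.383 and 0.367. Slc30a6 and Slc30a7, which serve the Golgi and secretory pathway, had log2 differences of 0.05 and 0.02 and overlapping groups.

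The tissue-restricted exporters lay under 1 FPKM and were read from whole reads recovered from the FPKM. Slc30a2, which loads secretory vesicles, had 5 reads in the control libraries together and 91 in the treated ones, a read ratio of 19.3 (95% exact interval 7.97 to 60.9, counting error only). Slc30a3, the synaptic vesicle zinc transporter of neurons, had 0 control and 59 treated reads, at least 20.8-fold higher against a floor of 3 reads over the group. Slc30a10, which in man exports manganese, had 0 control and 5 treated reads, all of the latter in replicate 2. Slc30a2 reached 0.692 and 0.897 FPKM and Slc30a3 0.762 and 0.531 FPKM in treated cells, so both stayed far below Slc30a4.

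Zinc importers moved in both directions. Of 8 tested Slc39a genes, 2 were higher, 4 lower and 2 not called, where 22.4% of all genes were higher and 38.1% lower. With median-ratio scaling 2 were higher and 3 lower, where 29.4% of all genes were higher and 27.3% lower. Slc39a1, a plasma membrane importer, had the highest levels listed in the family. It was at 50.3 and 58.5 FPKM in control and at 54.7 and 55.4 FPKM in treated libraries. Its groups overlapped, with a log2 difference of 0.02 ± 0.09 (adjusted p = 0.851). Slc39a10, which forms a complex with Slc39a6 at the plasma membrane, was at 9.09 and 9.17 FPKM in control and at 5.04 and 5.36 FPKM in treated libraries (log2 difference -0.71 ± 0.07, adjusted p = 0.00105). Slc39a6 was at 22.2 and 25.4 FPKM in control and at 15.9 and 16.3 FPKM in treated libraries (-0.54 ± 0.08, adjusted p = 0.00400). Both partners of the complex were therefore lower, without overlap. Slc39a3, another plasma membrane importer, was lower at -0.65 ± 0.07, and these 3 calls held in all 9 alternatives.

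Other importers moved less or in the opposite direction. Slc39a13, an intracellular transporter needed for connective tissue, was called lower at -0.20 ± 0.07 (adjusted p = 0.0460), and 8 of the 9 alternatives lost that call (adjusted p up to 0.507). Slc39a14, which carries both zinc and iron not bound to transferrin, was at 2.77 and 2.94 FPKM in control and at 4.68 and 4.33 FPKM in treated libraries, higher by 0.51 ± 0.09 (adjusted p = 0.00546). Slc39a11 was higher by 0.33 ± 0.07. The calls of Slc39a14 and Slc39a11 were each lost in 1 alternative, when a treated library was left out (adjusted p = 0.0526 and 0.0737). Slc39a9, of the Golgi and plasma membrane, was not called, at -0.12.

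Summed over the family, the ZIP genes gave 128.9 and 141.1 FPKM in control and 121.9 and 123.4 FPKM in treated libraries, and the ZnT genes gave 52.3 and 52.8, then 58.1 and 57.8 FPKM. Slc39a8, which carries zinc, manganese and cadmium, had 139 control and 97 treated reads (ratio 0.740, 95% exact interval 0.565 to 0.966, counting error only). Slc39a2 had 9 and 22 reads and Slc39a5 had 40 and 27. Slc39a4, the intestinal zinc importer, stood at 0.166 FPKM or less, and the pseudogene Slc39a1-ps had 7 and 8 reads. Slc39a7, which releases zinc from the endoplasmic reticulum, was at 0.121 FPKM or less, and 80.7% of its exon bases are shared with Gm20427, so the limit given for Mt2 holds for it too. The ZIP sums and the rank of Slc39a1 therefore hold for the listed levels only.

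**Figure D3:**
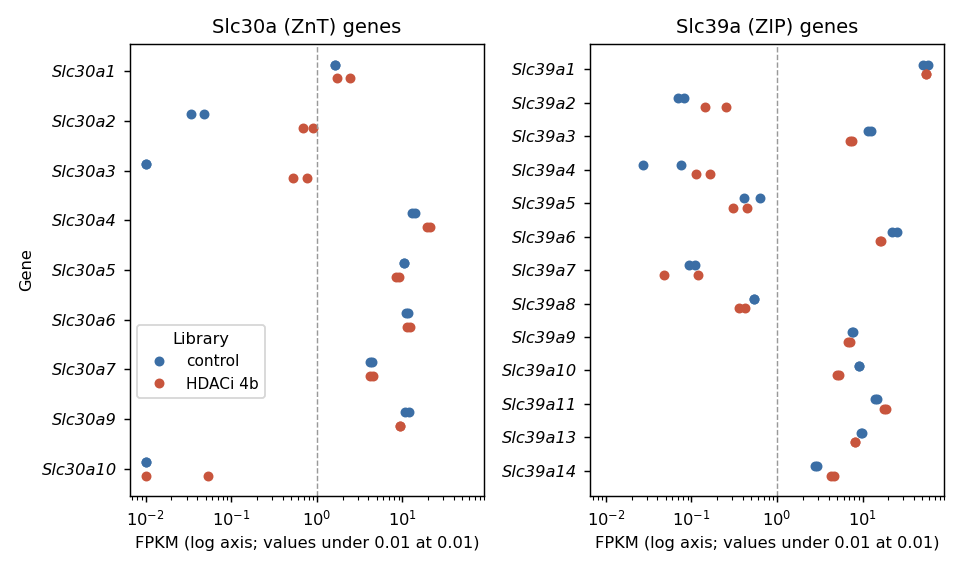
FPKM on a log axis of each Slc30a and Slc39a gene in the 2 control and 2 HDACi 4b libraries, with a dashed line at 1 FPKM and values under 0.01 drawn at 0.01. Slc30a2 and Slc30a3 move up from near or at 0 yet stay under 1 FPKM, while Slc39a3, Slc39a6 and Slc39a10 shift down and the groups of Slc39a1 overlap between 50.3 and 58.5 FPKM.

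Both ferritin chains and the transferrin receptor rose together. Fth1, the ferroxidase chain of ferritin, had the highest levels listed for any member, 877.2 and 827.9 FPKM in control and 5786 and 5757 FPKM in treated libraries. That is 6.77-fold, with a log2 difference of 2.76 ± 0.07 (adjusted p = 5.42e-05). Ftl1, the light chain, was at 90.3 and 87.3 FPKM in control and at 331.3 and 359.7 FPKM in treated libraries, 3.89-fold (1.95 ± 0.07, adjusted p = 9.67e-05). The groups were far apart for both chains, and the heavy chain gained more: the Fth1 to Ftl1 ratio was 9.71 and 9.48 in control and 17.5 and 16.0 in treated libraries. Ferritin light chain has many near-identical processed copies, and 34.6% of the exon bases of Ftl1 are shared with Gm10252. The copy Ftl1-ps1 was 3.88-fold higher as well, by a log2 difference of 1.60 ± 0.22 (adjusted p = 0.00387), from 2.98 and 2.18 FPKM. The sources used here do not state how reads were divided among such copies, so the level of Ftl1 itself is uncertain.

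Tfrc, whose message carries the 4 matches printed above in its 3′ UTR, was at 19.2 and 17.5 FPKM in control and at 72.4 and 76.3 FPKM in treated libraries. It rose 4.05-fold, by 1.96 ± 0.07 (adjusted p = 0.000102), with no overlap. Ireb2, which encodes an iron regulatory protein, was at 15.1 and 16.2 FPKM in control and at 9.41 and 10.2 FPKM in treated libraries, lower by a log2 difference of -0.62 ± 0.08 (adjusted p = 0.00188). Its partner Aco1 had 37.5 and 38.8 FPKM in control and 35.9 and 37.4 FPKM in treated libraries and was not called. RNA levels do not show whether either protein bound these hairpins.

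The remaining iron carriers changed less. Steap3, the endosomal ferrireductase, was higher by 0.42 ± 0.12 (adjusted p = 0.0266), a call lost in 4 alternatives (adjusted p up to 0.134). Slc11a1 (0.34), the phagosomal metal transporter, Slc11a2 (0.31), the endosomal iron transporter DMT1, and ferroportin Slc40a1 (0.25) were not called, with adjusted p of 0.0872, 0.0933 and 0.103. All 3 passed with median-ratio scaling, so that 5 of 5 iron carriers were then called higher where 2 of 5 had been. Among all genes, 29.4% were higher with that scaling and 22.4% without it. Slc40a1 and Slc11a1 are also known from macrophages. Of 6 tested macrophage markers, 4 were lower and Cd68 was higher, while Ptprc, Cd163, Mrc1 and Fcgr1 were below 1 FPKM in every library. Of the untested markers, Adgre1, Csf1r, Ptprc, Mrc1 and Fcgr1 stood at 0.20, 0.24, 0.20, 0.21 and 0.22 of their control means, without overlap. Cd163 went the other way, on 1 read in control and 2 in treated libraries. The part of macrophages in the iron results was not tested.

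Genes of heme synthesis and of heme breakdown were both among those with 2-fold increases. Alas1, the rate-limiting first enzyme of heme synthesis outside red cells, was at 7.70 and 9.93 FPKM in control and at 42.9 and 40.7 FPKM in treated libraries. It rose 4.74-fold, by 2.13 ± 0.12 (adjusted p = 0.000257), and the groups were far apart. Fech, which inserts iron to complete heme, was at 26.3 and 27.9 FPKM in control and at 23.6 and 24.1 FPKM in treated libraries and was not called (-0.18 ± 0.07, adjusted p = 0.0647). The Alas1 to Fech ratio went from 0.292 and 0.356 to 1.82 and 1.69.

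Of 9 other tested genes of heme synthesis, 1 was higher, 2 were lower and 6 were not called (33.3% called, beside 60.5% of all genes). With median-ratio scaling 3 were higher and 2 lower (55.6%, beside 56.7% of all genes). Uros, the uroporphyrinogen synthase, was higher by 0.22 ± 0.07 (adjusted p = 0.0387), a call lost in 6 of the 9 alternatives (adjusted p up to 0.159). Ppox, which makes protoporphyrin, was lower at -0.42 ± 0.08 (adjusted p = 0.00684), which did not pass once HDACi 4b replicate 1 was left out (adjusted p = 0.0551). Slc25a38, which brings glycine into mitochondria for the ALAS reaction, fell from 9.99 and 9.13 to 5.07 and 4.91 FPKM (-0.82 ± 0.08, adjusted p = 0.000877), opposite to the enzyme it feeds. Alas2, the erythroid form, was at 0.177 FPKM or less.

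Hmox1, the inducible heme oxygenase, was at 41.3 and 37.3 FPKM in control and at 202.0 and 210.4 FPKM in treated libraries. It rose 5.25-fold, by 2.36 ± 0.08 (adjusted p = 7.05e-05). The constitutive Hmox2 was at 16.9 and 17.9 FPKM in control and at 16.1 and 17.8 FPKM in treated libraries, with overlapping groups and a difference of -0.03 ± 0.08 (adjusted p = 0.722). The ratio of the inducible to the constitutive form went from 2.44 and 2.08 to 12.5 and 11.8. Other genes share 40.2% of the exon bases of Hmox2, and how reads on shared bases were counted is not stated. The level of Hmox2 and this ratio are therefore uncertain.

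Blvrb, a flavin and biliverdin reductase, had the second largest change of the tested members. It was at 3.19 and 3.26 FPKM in control and at 42.8 and 44.6 FPKM in treated libraries, 13.6-fold higher (log2 difference 3.40 ± 0.07, adjusted p = 4.57e-05). Blvra, the main biliverdin reductase of adult tissue, was at 6.17 and 4.21 FPKM in control and at 8.27 and 9.07 FPKM in treated libraries, higher by 0.66 ± 0.17 (adjusted p = 0.0217). Its call was lost in 3 alternatives (adjusted p up to 0.119). Blvra was the more abundant reductase in both control libraries and Blvrb in both treated ones, with Blvrb to Blvra ratios of 0.518 and 0.773 against 5.18 and 4.92. Blvrb is abundant in red cells, and the erythroid globin genes Hba-a1, Hbb-bs and Hbb-bt reached at most 1.06, 0.0816 and 0.0865 FPKM in any library. Hba-a1 had 5 control and 21 treated reads, Hbb-bs 1 and 2, and Hbb-bt 1 and 0. The part of red cells in the Blvrb result was not tested.

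**Figure D4:**
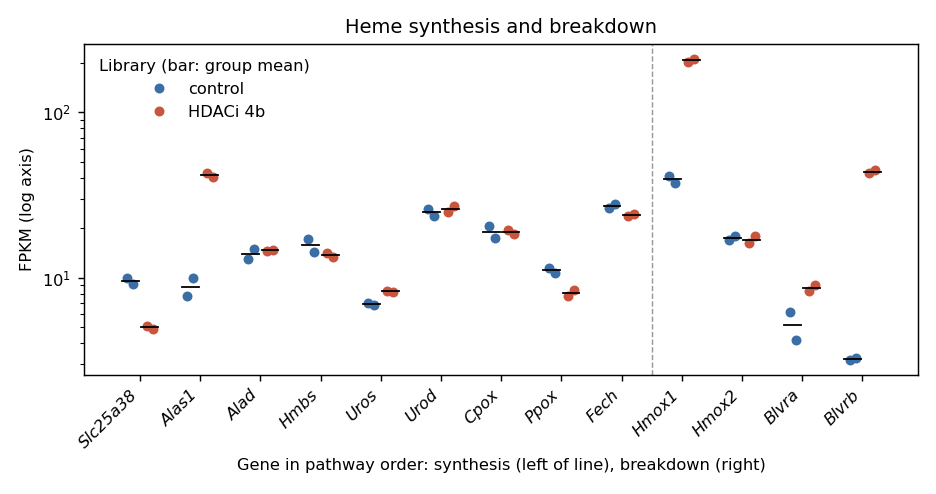
FPKM on a log axis for the genes of heme synthesis, from glycine import (Slc25a38) to Fech, and of heme breakdown, right of the dashed line, in each of the 4 libraries with a bar at each group mean. Alas1, Hmox1 and Blvrb stand 4.74-, 5.25- and 13.6-fold higher in treated cells, while Slc25a38 and Ppox are lower.

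Of 3 tested copper carriers, 2 were higher and 1 was not called, beside 22.4% of all genes higher. With median-ratio scaling 3 of the 3 carriers were higher, beside 29.4% of all genes. Without HDACi 4b replicate 2, 0 were called. Slc31a1, the plasma membrane copper importer, was at 21.1 and 20.5 FPKM in control and at 26.1 and 27.5 FPKM in treated libraries, higher by 0.35 ± 0.07 (adjusted p = 0.00688). Slc31a2, its endosomal relative, was higher by 0.43 ± 0.10 (adjusted p = 0.0141). These calls were lost in 1 and 2 alternatives (adjusted p up to 0.0574 and 0.0909). Of the copper exporting ATPases, Atp7a had a difference of 0.23 ± 0.10 that was not called (adjusted p = 0.102) and passed with median-ratio scaling, and Atp7b, the liver form, had 6 control and 38 treated reads, a ratio of 6.71 (95% exact interval 2.82 to 19.4, counting error only). Atox1, the chaperone that hands copper to both ATPases, rose from 87.4 and 87.1 to 200.2 and 191.9 FPKM (1.16 ± 0.06, adjusted p = 0.000198), while Ccs, which loads copper onto the superoxide dismutase SOD1, was lower at -0.54 ± 0.08.

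Among 75 further genes of the same pathways, 70 were in the table and 55 were tested. Of these, 20 were higher and 12 lower, so 58.2% were called against 60.5% of all genes, and their median log2 difference was 0.07. With median-ratio scaling 24 were higher and 7 lower, so that 77.4% of calls were increases in place of 62.5%. Among all genes increases made up 51.8% of calls with that scaling in place of 37.0%. Beside the lists that follow, 22.4% of all genes were higher and 38.1% lower. In heme transport and scavenging, 4 of 6 were higher and 1 was lower. Hp, 1 of the 4, passed the filter of 1 FPKM only through its treated libraries. It had 0.341 and 0.247 FPKM in control and 2.19 and 1.99 in treated libraries, so its rise helped to select it. Pgrmc1, a heme-binding membrane protein also known from progesterone signalling, rose from 112.3 and 118.3 to 326.8 and 323.2 FPKM (1.49 ± 0.07, adjusted p = 0.000132), and the heme-binding protein Hebp1 was higher by 0.82 ± 0.08. In iron uptake and its regulation, 3 of 12 were higher and 3 lower. Hfe, 1 of the 3 higher, likewise passed the filter only through its treated libraries. Its levels were 0.783 and 0.333 FPKM in control and 2.97 and 2.65 FPKM in treated libraries. The ferroxidase Heph rose from 6.25 and 5.79 to 17.1 and 18.0 FPKM (1.40 ± 0.07, adjusted p = 0.000194), and the metalloreductase Steap1 from 2.78 and 2.71 to 9.94 and 7.83 FPKM.

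In mitochondrial iron import and iron-sulfur assembly, 6 of 14 were higher and 2 lower. The mitochondrial iron importer Slc25a37 was higher by 0.91 ± 0.07 and the assembly factor Isca2 by 0.95 ± 0.06. Of the copper chaperones and enzymes, 3 of 6 were higher and 2 lower. Of the regulators, 3 of 8 were higher and 2 lower. With median-ratio scaling 3 were higher and 0 lower, beside 29.4% and 27.3% of all genes. Nfe2l2, the oxidant-responsive activator of Hmox1, ferritin and Blvrb, rose from 41.6 and 44.9 to 87.7 and 81.3 FPKM (0.95 ± 0.08, adjusted p = 0.000501), and Hif1a, the oxygen-responsive activator of Hmox1 and Tfrc, was higher by 0.88 ± 0.06. Bach1, the heme-sensing repressor of Hmox1, was not called, at 7.25 and 7.65 FPKM in control and 8.57 and 7.61 FPKM in treated libraries. Keap1, which marks the NFE2L2 protein for degradation, was lower at -0.25 ± 0.08 (adjusted p = 0.0433), a call lost in 7 of the 9 alternatives (adjusted p up to 0.315). Mafg, a small Maf partner of NFE2L2, was lower at -0.38 ± 0.08 (adjusted p = 0.00840), a call lost in 2 alternatives, median-ratio scaling among them (adjusted p up to 0.0606). These are RNA levels, and the activity of the factors was not measured.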

How the data were processed

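RNA libraries of control and HDACi 4b-treated GCs, 2 each, were sequenced by the authors, who deposited 1 table of FPKM per gene. Bowtie 0.12.2 and the build mm8 are listed in the processing notes of the submitters. The sources used here state neither the counting tool nor its annotation, nor how reads with several matches were placed. No coordinate of that build was used. Sequences come from RefSeq (GRCm38.p6) and GENCODE M21. Whole reads were recovered from the FPKM with GENCODE exon lengths for 21610 of 23895 matched genes (90.4%, within 0.001 reads) and for 40 of the 45 members.

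The test was limma (version 3.58.1, R 4.3.3) with trended, robust variance moderation on log2(FPKM + 1), for genes whose mean reached 1 FPKM. It was two-sided, with Benjamini-Hochberg adjustment over all genes tested and a threshold of 0.05. The fit was also run on simulated data with few genes changed, evenly up and down. That setting differs from these libraries, so no support is drawn from it. Folds are ratios of mean FPKM, and read ratios carry exact 95% intervals computed with scipy 1.17.1. Because 1 FPKM is added before the logarithm, the fit understates changes of low genes. Every member was accounted for. Full values were given for members changed at least 2-fold, the 6 with the highest mean FPKM, Mtf1, Slc30a1, Hmox1, Tfrc and the metallothioneins, and for partners the 2 with the smallest p in each list were named first. Aco1, Bach1, Keap1, Mafg, Uros, Alas2, the globins, ferritin copies and genes beside or overlapping members were named after their values were seen. Members and lists were chosen with earlier results of these data known.

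Alternatives were a pseudocount of 0.1, no filter, median-ratio scaling, limma-voom on recovered reads for genes with 10 reads or more in 2 libraries, the replicate number as a block and leaving out each library.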

Additional observations from a re-analysis of the deposited data

How the results depend on the processing

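Over 9 alternatives, no member changed direction across a call. Of the values per member and alternative, 256 kept their side of the threshold, 36 lost a call and 11 gained one, and 13 called members kept their call throughout. The 23 called members became 15 when either treated library was left out, and over all left-out libraries the count ran from 15 to 20, while the 2-fold count stayed at 8. The 32 called partner genes ranged from 21 to 32 and the 7297 called genes from 4504 to 6760 over the same fits, the latter lowest without HDACi 4b replicate 1. A fit with 1 library in a group assumes that it varies like the other group, and has fewer samples. With limma-voom on recovered reads, 26 of 36 members were called (72.2%), 22 higher (61.1%) and 4 lower (11.1%), beside 57.6%, 29.2% and 28.3% of all genes, and 10 at least 2-fold (27.8%, beside 24.9%). Of 52 partners, 24 were then higher and 8 lower. With the replicate number as a block, 22 members, 32 partners and 7315 genes were called. The labels do not say that a number pairs libraries, and the difference between replicates 1 and 2 had a correlation over genes of 0.088 between the groups, so the numbers were not taken to pair them. With 2 libraries a group, small differences near the threshold were not resolved, and for members under 1 FPKM depth limits the values to the reads given.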
